A study of Rattus norvegicus with 24 samples.

Results

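The effect of a lithium diet on gene expression was measured in the renal medulla of male Wistar rats, the inner part of the kidney in which urine is concentrated. The comparison covered every transcript cluster (the array's unit for 1 gene or transcript) whose log2 signal intensity reached 6 on 4 or more of the 12 medulla arrays. This held for 16025 of the 28894 clusters on the array. Of these, 10034 carried a single gene symbol, standing for 9447 genes, 5873 carried no symbol and 118 carried several. Since a cluster could pass through 1 diet group alone, 101 clusters passed with no control array at 6 or more and 21 with no lithium array at 6 or more.

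The 6 lithium-treated rats received 40 mmol lithium per kg food for 7 days and 60 mmol per kg for the remainder of 6 months, and had a salt block to hold their sodium balance. The 6 control rats ate standard food without lithium and no salt block is described for them, so that lithium and the salt block cannot be told apart. Each animal gave 1 medulla array, and its number identifies it below. The RNA came from pieces of whole frozen medulla, in which fewer cells of a type and less RNA per cell cannot be told apart.

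Lithium enters the principal cells of the collecting duct through the epithelial sodium channel and makes them poorly responsive to vasopressin, so that the kidney loses its ability to concentrate urine. Inside cells it inhibits glycogen synthase kinase 3, which otherwise marks beta-catenin for degradation, and enzymes that recycle inositol. In rats, lithium is known for a remodelled collecting duct with more intercalated cells, the acid and base secreting cells that lie between the principal cells. Long exposure is known for interstitial fibrosis in rats and in humans.

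The labels were compared with marker genes before the diets were compared. On the control arrays the mean signal of 13 inner medulla and papilla genes was 2.66 log2 higher in medulla than in cortex, that of 10 thin limb genes 2.12 higher, and that of 23 proximal tubule genes differed by -2.68. The array medians lay between 6.12 and 6.16 in the control group and between 6.16 and 6.22 in the lithium group. Marker levels differed between animals of 1 diet. Control animals 30 and 15 had the lowest intercalated cell means (6.48 and 7.29, against 8.26 to 8.87 on the other 4 control arrays), and animal 30 also had the highest papilla mean of all 12 arrays (9.81). Over all clusters, the arrays of animals 17 and 6 lay farthest from the others of the lithium group (median absolute deviation 0.209 and 0.200 log2, against 0.110 to 0.140 for the other 4), and those of animals 30 and 29 farthest in the control group (0.206 and 0.197). Animal 6 was also the lithium array nearest to the control arrays for 89 of the clusters that rose and 38 of those that fell. Results are also given without animal 6, and since that choice favours more calls, a call kept or gained without it is no sign of stability. The authors had removed the effect of scan date before deposit. No source used here gives the scan dates, but the adjustment left a trace from which 3 scan groups of 4 arrays were recovered, each with 2 arrays of each diet, and these were a term of the fit.

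At an adjusted p under 0.05 in limma, 133 clusters (0.83% of those tested) were higher in the lithium-treated medulla and 57 (0.356%) were lower, 1.19% in all, and at an unadjusted p under 0.05 the counts were 1456 (9.09%) and 1679 (10.5%). The higher clusters had a median log2 fold change of 0.89, a 1.86-fold difference, and ran up to 4.0, with 52 of them at 1 or more. The lower clusters had a median of -0.71, a 1.64-fold difference, and ran down to -1.63, with 7 of them at -1 or beyond. On the arrays themselves, all 6 lithium values lay above all 6 control values in 125 of the 133 and below them in 48 of the 57, where this held for 2.12% and 1.6% of all clusters tested. All 190 had the same sign in each of the 3 scan groups. Their selection by this fit favours both the separation of the groups and the shared sign. For the sign, the share over all clusters was not counted. Without animal 6 the counts were 459 higher (2.86%) and 594 lower (3.71%). A fit without scan group gave 533 higher (3.33%) and 519 lower (3.24%), so that the share of higher clusters among the calls was 50.7% instead of 70%. With arrays centred on their medians, which moved the median of all clusters to -0.06 from -0.01, this share was 51.3%, from 101 higher and 96 lower. In every one of the 12 fits that left out 1 animal, 37 of the 133 higher clusters and 6 of the 57 lower ones kept their call. The counts higher and lower were 46 and 7 without animal 15, 53 and 14 without 16, 57 and 12 without 17, 63 and 20 without 18, 44 and 9 without 19, and 42 and 8 without either 21 or 22. They were 98 and 25 without animal 1, 74 and 41 without 13, 82 and 26 without 30, and 144 and 102 without 29.

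**Figure D1:**
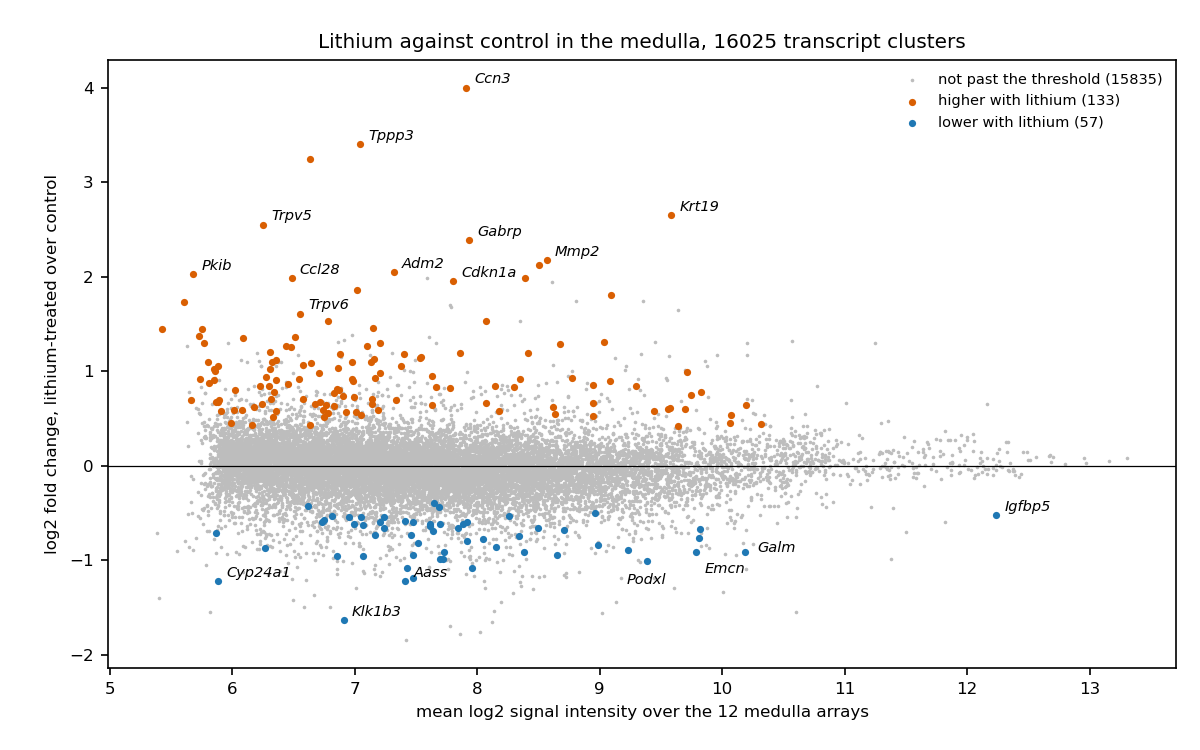
Lithium effect in the medulla as a log2 fold change over control (vertical axis) against mean log2 signal intensity (horizontal axis) for 16025 transcript clusters. Orange points (133) were higher and blue points (57) lower at an adjusted p under 0.05; the higher ones reach 4.0 and the lower ones -1.63.

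The gene with the largest rise was Ccn3, also named NOV, a secreted matricellular protein of the CCN family. Its signal ran from 5.71 to 6.38 on the control arrays (median 5.82) and from 9.01 to 10.24 on the lithium arrays (median 10.05). No array of one diet came within 2.63 log2 of the other, and the lowest lithium value was that of animal 6. The log2 fold change was 4.0 ± 0.21 (SE, n = 6 per diet, adjusted p = 6.79e-06, limma) and 4.22 without animal 6. Of the 5 CCN genes measured, Ccn3 alone passed the test, where 0.995% of all named genes tested were higher and 0.423% lower, and the median of the 5 was 0.17.

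Tppp3, which promotes the assembly of microtubules, came next. It lay between 4.98 and 5.84 in controls (median 5.32) and between 7.50 and 9.41 with lithium (median 8.79), again without overlap and with animal 6 lowest. All its control values were under 6, so that it reached the filter through the lithium arrays alone. The difference was 3.40 ± 0.29 log2 (SE, adjusted p = 0.00084). Tppp, a gene of the same small family, was at 6.5 to 6.99 against 7.38 to 8.04 (medians 6.63 and 7.68), which also left no overlap, a log2 fold change of 0.98 ± 0.14 (adjusted p = 0.00952). The alpha-tubulin Tuba1c was one of the brighter genes to rise, from 9.17 to 9.60 in controls (median 9.48) to 10.07 to 10.38 with lithium (median 10.22). Its groups were narrow and separate, and the fold change was 0.78 ± 0.10 log2 (adjusted p = 0.00666). These 3 kept their calls in all 12 fits that left out an animal. Among 20 tubulins and microtubule partners measured, 3 rose and 1 fell, beside 0.995% and 0.423% of all named genes. Their median was 0.16, beside -0.01 over all clusters tested. The gene that fell was Mapt, the microtubule-binding protein tau, from a control median of 7.81 to a lithium median of 7.16 (-0.59 ± 0.12 log2, adjusted p = 0.0376), and its call held in 3 of 12 such fits. Of 13 genes of the cilium, none passed the test (median -0.05), and at an unadjusted p under 0.05 the fit had 1 lower and 0 higher.

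Krt19, Vsig1, Gabrp and Pkib were also among the 15 named genes with the largest rises. Krt19, a keratin of simple and duct epithelium, ran from 7.60 to 9.04 in controls (median 8.33) and from 10.40 to 11.70 with lithium (median 10.84). Its 2 groups were more than 1 log2 unit apart, and the log2 fold change was 2.65 ± 0.29 (adjusted p = 0.00247). Vsig1, a junctional cell surface protein of the immunoglobulin family, was at 4.45 to 5.25 in controls (median 4.67) and at 5.94 to 6.75 with lithium (median 6.55). There was no overlap, and the control values lay under the intensity of 6 that the filter uses (1.74 ± 0.17 log2, adjusted p = 0.00154). Gabrp, the pi subunit of the GABA-A receptor, a chloride channel, spread over more than 2 log2 units in the control group, from 5.55 to 7.86 (median 6.73). With lithium it ran from 8.55 to 10.23 (median 9.04), above every control value, and rose by 2.39 ± 0.38 log2 (adjusted p = 0.0156). This call was lost without animal 21 or without animal 22, with an adjusted p of up to 0.0552. Pkib, an inhibitor protein of protein kinase A, which carries the vasopressin signal in principal cells, was at 4.43 to 5.03 in controls (median 4.66). On the lithium arrays it was at 5.72 to 7.24 (median 6.79), with animal 6 lowest and still above every control, so that it reached the filter through the lithium arrays alone. The fold change was 2.03 ± 0.24 log2 (adjusted p = 0.00309) and 2.28 without animal 6. In a list of 22 genes of vasopressin and cyclic AMP signalling that did not hold Pkib, 0 passed the test in limma. At an unadjusted p under 0.05, 1 of these was higher and 5 lower, and 1 fell without animal 6.

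**Figure D2:**
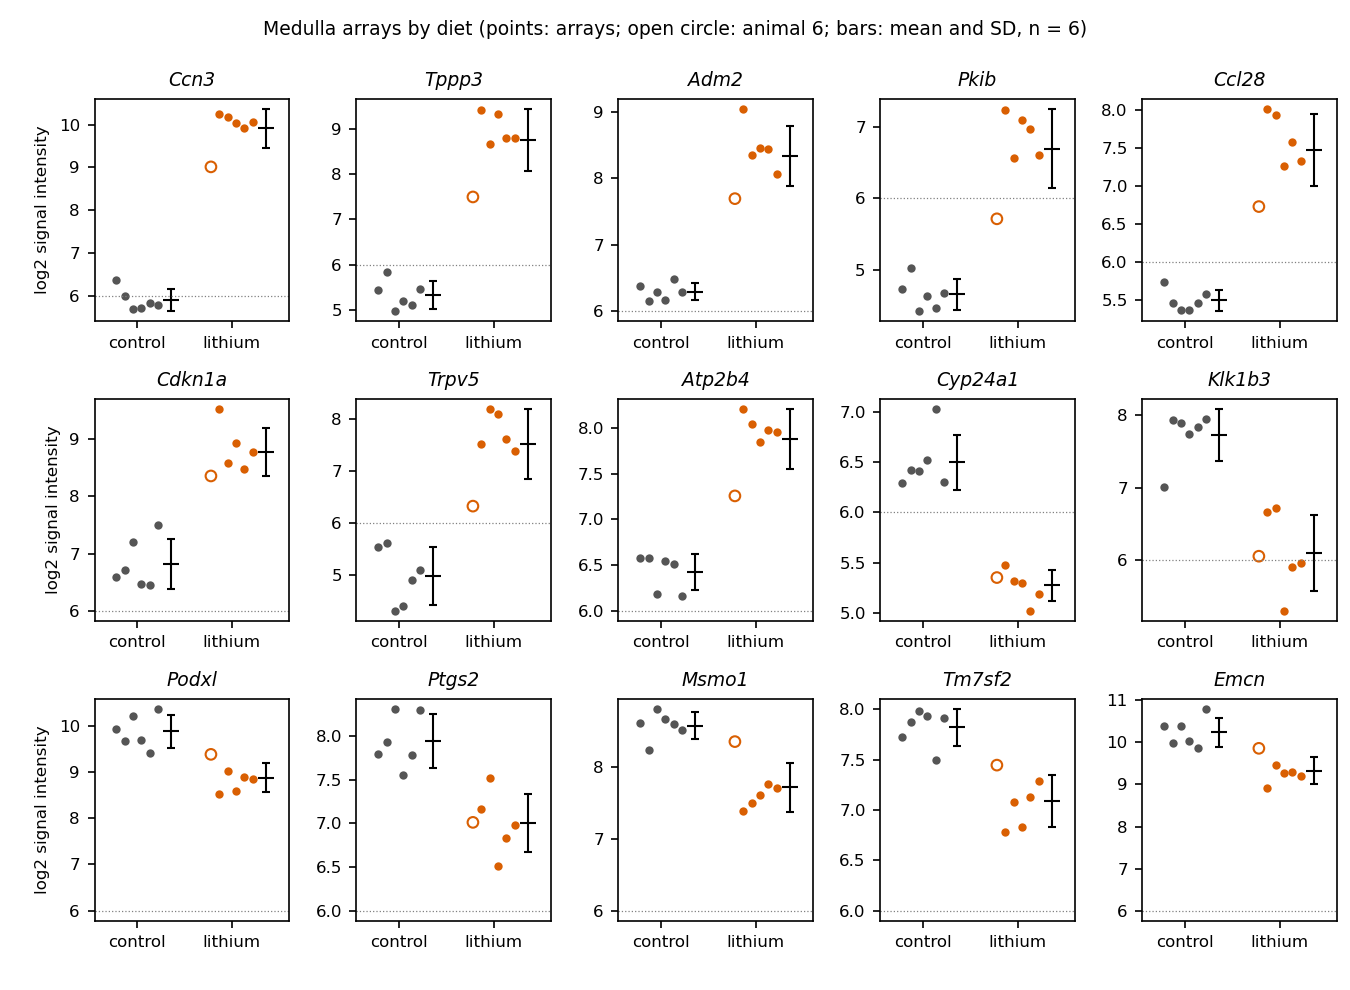
Log2 signal intensity (vertical axis, scale differs by panel) of 15 genes on the 6 control and 6 lithium medulla arrays, with the mean and SD (n = 6) beside each group. Open circles are animal 6, which was the lowest lithium array for Ccn3, Tppp3, Adm2, Pkib, Ccl28, Cdkn1a, Trpv5 and Atp2b4 and the highest for Podxl, Msmo1, Tm7sf2 and Emcn; the dotted line is the intensity of 6 used by the filter.

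Trpv5, Trpv6 and Atp2b4, which carry calcium across distal tubule cells, rose with lithium, and Cyp24a1, which inactivates vitamin D, fell. Trpv5 and Trpv6 are the channels through which calcium enters these cells from the urine, and they lie next to each other on the chromosome. Trpv5 ran from 4.31 to 5.62 in controls (median 5.0) and from 6.32 to 8.19 with lithium (median 7.58). The lowest of these lithium values, again animal 6, lay 0.71 log2 above the highest control, and since all control values were under 6 the gene reached the filter through the lithium arrays alone. Its log2 fold change was 2.55 ± 0.34 (adjusted p = 0.00685), and it differed between scan groups, from 1.35 to 3.80. Trpv6 was at 5.34 to 6.02 against 6.70 to 7.82 (medians 5.79 and 7.42), without overlap (1.61 ± 0.20 log2, adjusted p = 0.00514). Atp2b4, a calcium pump of the plasma membrane, was tightly grouped, at 6.16 to 6.58 in controls (median 6.53) and 7.26 to 8.20 with lithium (median 7.97). It rose by 1.46 ± 0.16 log2 (adjusted p = 0.00265). Cyp24a1, the 24-hydroxylase that breaks down active vitamin D, lay between 6.29 and 7.03 in controls (median 6.42) and between 5.02 and 5.48 with lithium (median 5.31). All 6 lithium values were below all control values and below 6, so that this gene reached the filter through the control arrays alone. The log2 fold change was -1.22 ± 0.14 (adjusted p = 0.00288), and these 4 genes kept their calls in all 12 fits that left out an animal.

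Among the 18 measured genes of calcium, vitamin D and phosphate handling, 3 rose and 2 fell, beside 0.995% and 0.423% of all named genes, with a median of -0.33. Another 3 genes of this list on the array did not reach the filter. The other gene that fell was Cnnm2, which is linked to magnesium transport (-0.53 ± 0.11 log2, adjusted p = 0.0457). It was named after its values were seen. Stc1, stanniocalcin 1, a hormone of calcium and phosphate balance, did not pass (1.06 ± 0.24 log2, adjusted p = 0.0618) and did without animal 6 (adjusted p = 0.011). Casr, the calcium-sensing receptor, a gene of the thick ascending limb, varied widely in controls, from 5.73 to 8.85, and gave -1.01 ± 0.54 log2 (adjusted p = 0.321). Of 6 measured markers of the distal convoluted and connecting tubule, 2 rose and 0 fell, beside 0.995% and 0.423% of all named genes. Among these 6, 3 had a positive and 3 a negative fold change (median 0.09), and 3 other markers did not reach the filter.

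The promoter of Trpv6 is shown because it holds a binding motif of TCF/LEF, the factors that act with beta-catenin. The sequence is that of RefSeq for the GRCr8 build around the gene start, chr4:71489618-71489917 on the minus strand, 5′ to 3′, with the motif CTTTGAA in capitals.
Trpv6: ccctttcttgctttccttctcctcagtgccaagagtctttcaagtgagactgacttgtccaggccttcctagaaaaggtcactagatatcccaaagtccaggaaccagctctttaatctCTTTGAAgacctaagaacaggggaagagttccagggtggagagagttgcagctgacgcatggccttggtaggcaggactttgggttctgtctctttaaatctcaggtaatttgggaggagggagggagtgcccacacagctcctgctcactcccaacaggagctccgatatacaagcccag
The letters searched were CTTTGAT and CTTTGAA on both strands, and 450 of 7847 measured genes with a promoter in the table held one (5.73%). Of 72 genes that rose, 6 held it (8.33%), namely Ccdc65, Cd44, Cldn6, Dclk1, Mrc1 and Trpv6, and of 32 that fell 1 did (3.12%), Ctnnal1. Ccdc65, Cldn6 and Dclk1 were named for this match. A match is a description of these letters and not a site of binding.

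Among markers of intercalated cells, 3 of 16 measured genes rose and 0 fell, beside 0.995% and 0.423% of all named genes, with a median log2 fold change of 1.24. Oxgr1, a receptor for 2-oxoglutarate on these cells, ran from 5.95 to 8.48 in controls (median 7.76) and from 9.01 to 10.02 with lithium (median 9.58). The groups did not overlap, but the control group spanned more than 2 log2 units (2.13 ± 0.43 log2, adjusted p = 0.0411). Its call held in 4 of 12 fits that left out an animal. Slc4a9, an anion exchanger, was at 6.22 to 8.17 in controls (median 7.64) and at 9.09 to 9.73 with lithium (median 9.30), which left a gap of 0.92 log2. It rose by 1.99 ± 0.32 log2 (adjusted p = 0.0156) and held in 9 of 12 fits. Atp6v1g3, a subunit of the proton pump, was at 6.04 to 7.02 against 7.20 to 8.01 (medians 6.74 and 7.72), without overlap (1.10 ± 0.20 log2, adjusted p = 0.0296, held in 5 of 12). The defining markers Foxi1, Atp6v1b1 and Atp6v0d2 gave 1.74 ± 0.50, 1.75 ± 0.49 and 1.94 ± 0.54 log2 with adjusted p of 0.105, 0.103 and 0.0982, and did not pass. Averaged over the 16 genes, the arrays ran from 6.48 to 8.87 in controls and from 8.72 to 9.71 with lithium, so that the groups overlapped by animal 29 among the controls and animal 17 among the treated. The 2 lowest control values were those of animals 30 and 15. In a fit without scan group 8 of the 16 genes were higher, and 5 without animal 6.

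The other segments of the medulla showed few single genes past the threshold. Of 17 genes of principal cells 0 passed in limma (median 0.01), where an unadjusted p under 0.05 gave 3 in each direction, with 1 higher both without scan group and without animal 6. All 23 proximal tubule genes had a negative fold change, with a median of -0.70, and 0 passed, where 9 were lower at an unadjusted p under 0.05 and 2 without scan group. The one with the smallest p was Slc22a6, the organic anion transporter 1 (-0.68 ± 0.16 log2, adjusted p = 0.0644). The median of 14 thick ascending limb genes was -0.53 and that of 10 thin limb genes -0.46, with 0 past the threshold in either and 0 and 2 lower at an unadjusted p under 0.05. The array means of the thick ascending limb list overlapped over most of their range, from 8.10 to 10.41 in controls and from 7.28 to 9.75 with lithium. Those of the thin limb list ran from 8.24 to 9.0 and from 8.05 to 8.36. One of 13 genes of the inner medulla and papilla fell, Ptgs2, and its list had a median of -0.47.

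**Figure D3:**
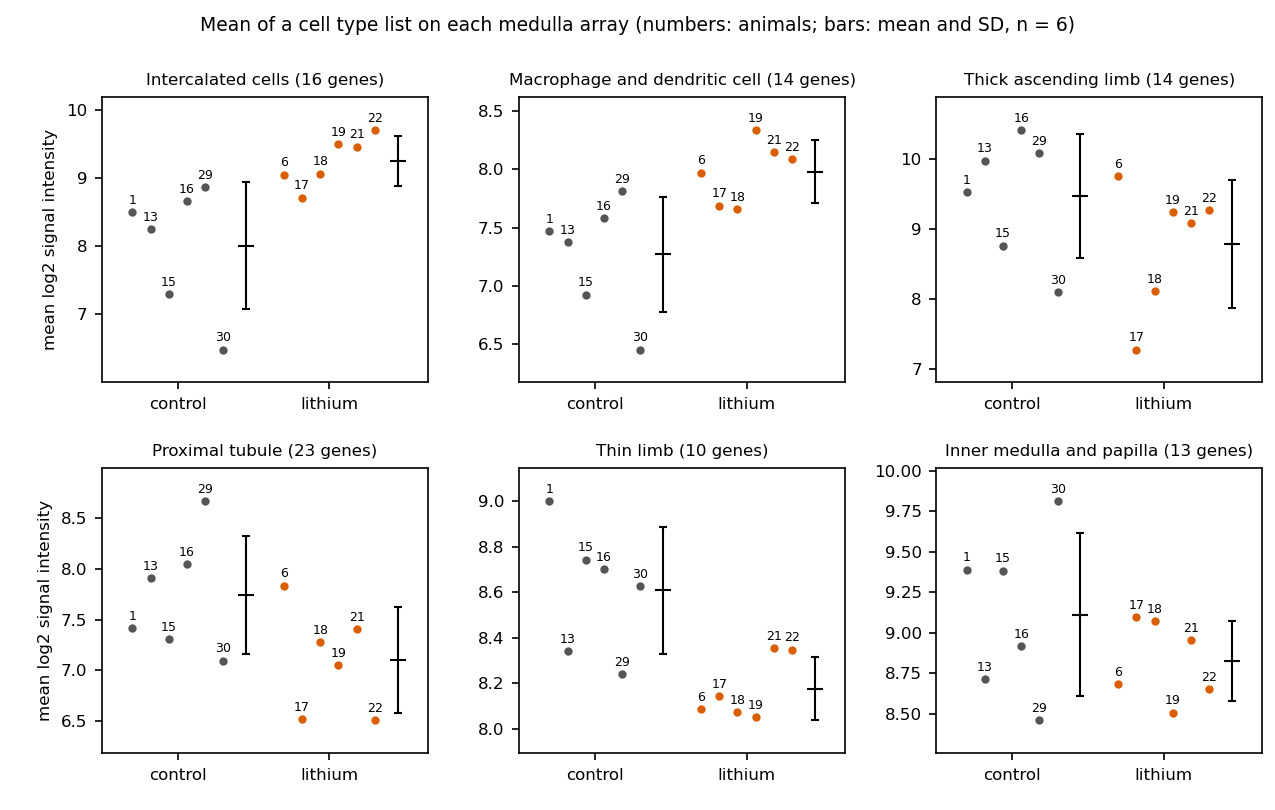
Mean log2 signal intensity of 6 cell type lists (vertical axis, scale differs by panel) on each medulla array, with animal numbers and the mean and SD (n = 6) of each diet. Control animals 15 and 30 were lowest among controls in the intercalated cell, macrophage, thick ascending limb and proximal tubule lists, and animal 30 was highest in the papilla list.

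Cd68, Mrc1 and C1qa, genes of macrophages, rose in the lithium-treated medulla. Of 18 macrophage and dendritic cell genes on the array 14 reached the filter, and 3 of these passed the test, beside 0.995% of all named genes that were higher. The 14 had positive fold changes with a median of 0.71. Cd68, a lysosomal protein of macrophages, ran from 6.14 to 7.36 in controls (median 7.00) and from 7.58 to 8.19 with lithium (median 7.84). No values overlapped (1.06 ± 0.21 log2, adjusted p = 0.0411). Mrc1, the mannose receptor, was at 4.86 to 5.86 against 6.08 to 6.66 (medians 5.26 and 6.34), also without overlap (1.00 ± 0.19 log2, adjusted p = 0.0376), and with every control under 6 it reached the filter through the lithium arrays alone. C1qa, a chain of complement component C1q, was at 6.51 to 7.65 against 7.86 to 8.49 (medians 7.31 and 8.05), with a difference of 0.95 ± 0.20 log2 (adjusted p = 0.0454). These calls were close to the threshold, and they held in 3, 3 and 2 of 12 fits that left out an animal, with an adjusted p of at most 0.122, 0.108 and 0.123. Csf1r, another defining marker, did not pass (0.60 ± 0.29 log2, adjusted p = 0.271). The mean over the 14 genes ran from 6.45 to 7.81 in controls and from 7.66 to 8.34 with lithium, and the 2 lowest values were again those of control animals 30 and 15, the animals with the lowest intercalated cell means. The part of these marker differences between control animals in the result was not tested.

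Genes of antigen presentation did not pass the test one by one. All 13 measured genes of MHC class II presentation had a positive fold change with a median of 0.59, and 0 passed in limma, where 7 were higher at an unadjusted p under 0.05 and 1 without scan group. Cd86, a costimulatory ligand, had the smallest p (0.67 ± 0.19 log2, adjusted p = 0.102). Cd3e, a chain of the T cell receptor complex, ran from 5.22 to 5.80 in controls (median 5.54) and from 5.84 to 6.44 with lithium (median 6.25), barely apart, and rose by 0.68 ± 0.14 log2 (adjusted p = 0.0411, held in 2 of 12 fits). Its control values were all under 6. It was 1 of 8 T cell and NK cell genes to pass, beside 0.995% of all named genes that were higher. Another 9 genes of that list did not reach the filter. Only 2 B cell genes and 1 neutrophil or mast cell gene reached it, and 0 of these passed in limma, with 1 and 0 higher at an unadjusted p under 0.05.

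The chemokines Ccl28 and Ccl20 rose and the cytokine Il15 fell. Ccl28, which attracts lymphocytes to mucosal surfaces, ran from 5.36 to 5.73 in controls (median 5.46) and from 6.73 to 8.02 with lithium (median 7.46), so that the groups were 1.00 log2 apart and all controls were under 6. It rose by 1.99 ± 0.20 log2 (adjusted p = 0.00154). Ccl20, the ligand of Ccr6, was at 5.50 to 6.21 against 6.67 to 7.73 (medians 5.79 and 6.94), without overlap (1.27 ± 0.20 log2, adjusted p = 0.0137). Il15, a cytokine that sustains NK cells and memory T cells, went the other way, from 6.86 to 7.26 in controls (median 7.01) to 6.30 to 6.69 with lithium (median 6.44). Its values were again separate, and it fell by 0.58 ± 0.10 on the log2 scale (adjusted p = 0.0236, held in 5 of 12 fits). Of 20 chemokines and interleukins measured, 2 rose and 1 fell, beside 0.995% and 0.423% of all named genes, with a list median of 0.13. Among 29 interferon-stimulated genes the only one past the threshold was Psmb8, a subunit of the immunoproteasome, which rose by 0.73 ± 0.11 log2 (adjusted p = 0.0114), with 6.41 to 6.68 in controls and 7.06 to 7.46 with lithium (medians 6.53 and 7.29). The median of that list was -0.28, of opposite sign to Psmb8. Stap1, an adaptor protein of immune receptor signalling, was at 5.01 to 6.99 in controls (median 6.12) and 7.25 to 8.29 with lithium (median 8.05), not overlapping (1.86 ± 0.31 log2, adjusted p = 0.0192, held in 7 of 12 fits).

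Cdkn1a and Cd44, genes known to rise in injured tubules, were higher. Cdkn1a, the cyclin-dependent kinase inhibitor p21, ran from 6.45 to 7.50 in controls (median 6.66) and from 8.36 to 9.53 with lithium (median 8.68). The groups lay 0.85 log2 apart, with a fold change of 1.96 ± 0.24 log2 (adjusted p = 0.00469). Cd44, the hyaluronan receptor, was at 6.33 to 7.36 in controls (median 7.13) and at 7.72 to 8.48 with lithium (median 8.10), without overlap (1.14 ± 0.20 log2, adjusted p = 0.0229, held in 6 of 12 fits). They were the 2 of 20 tubular injury and repair genes that passed (list median 0.39), beside 0.995% of all named genes that were higher. Lcn2, the injury marker lipocalin 2, stayed short of the threshold (0.99 ± 0.23 log2, adjusted p = 0.0656; 0.0262 without animal 6). Of 30 cell cycle genes on the array only 10 reached the filter, and among these Cdkn1a alone passed. Cd44 is also a beta-catenin target, and its promoter, chr3:109699375-109699674 on the minus strand of GRCr8, holds the TCF/LEF letters on the opposite strand, printed in capitals as TTCAAAG.
Cd44: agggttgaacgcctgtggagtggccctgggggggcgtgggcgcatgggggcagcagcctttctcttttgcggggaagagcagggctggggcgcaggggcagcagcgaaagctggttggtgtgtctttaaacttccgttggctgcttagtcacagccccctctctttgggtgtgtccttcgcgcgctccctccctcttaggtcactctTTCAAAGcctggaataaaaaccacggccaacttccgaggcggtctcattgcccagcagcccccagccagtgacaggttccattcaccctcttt
Dkk3, a secreted protein of the Dickkopf family, was the other of 19 Wnt antagonists and beta-catenin targets to rise. It ran from 5.79 to 6.42 in controls (median 6.01) and from 6.65 to 7.44 with lithium (median 7.16), with no overlap (1.07 ± 0.16 log2, adjusted p = 0.0114). The list's median was 0.08, and 0 of its genes fell. Heyl, a target of Notch, was at 5.99 to 6.86 against 7.39 to 7.93 (medians 6.51 and 7.82). It was the only one of 16 Notch pathway genes to pass (list median 0.11), beside 0.995% of all named genes that were higher. Its groups were separate and its difference was 1.27 ± 0.16 log2 (adjusted p = 0.00549).

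The secreted peptides Adm2 and Guca2b rose as well. Adm2, the adrenomedullin relative also called intermedin, was almost constant in controls, from 6.15 to 6.48 (median 6.29), and ran from 7.70 to 9.05 with lithium (median 8.40). The lowest lithium array, animal 6, lay 1.22 log2 above the highest control (2.05 ± 0.19 log2, adjusted p = 0.00125). Guca2b, uroguanylin, a peptide that promotes sodium loss in urine, was at 6.86 to 7.60 against 8.28 to 9.61 (medians 7.36 and 8.88), without overlap (1.53 ± 0.23 log2, adjusted p = 0.0117). They were the 2 of 25 vasoactive peptide and kinin genes that rose, and 0 of that list fell, beside 0.995% and 0.423% of all named genes. The list median was 0.06. Klk1b3, a serine protease of the kallikrein family, had the largest fall among the named genes past the threshold, from 7.00 to 7.95 in controls (median 7.87) to 5.29 to 6.71 with lithium (median 6.00). The lowest control, animal 1, lay 0.29 log2 above the highest lithium array. The log2 fold change was -1.63 ± 0.25 (adjusted p = 0.0138), the call was lost without animal 21 or without animal 22, and probes of this family may share signal between close copies. Kcnq1, a potassium channel subunit, was 1 of 29 sodium and potassium transport genes to pass, at 8.20 to 8.97 against 9.17 to 9.75 (medians 8.75 and 9.53). Its values did not overlap (0.89 ± 0.16 log2, adjusted p = 0.03, held in 4 of 12 fits). The 29 genes had a median of -0.23, with 12 positive and 17 negative fold changes. At an unadjusted p under 0.05 the fit had 5 in each direction, and without scan group 2 were higher and 5 lower.

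Mmp2, Bmp1 and Mmp12, enzymes that cut or process matrix proteins, rose. Mmp2, gelatinase A, ran from 6.93 to 8.16 in controls (median 7.34) and from 8.97 to 9.99 with lithium (median 9.78). Its groups lay 0.80 log2 apart, with a difference of 2.17 ± 0.25 log2 (adjusted p = 0.00309). Bmp1, the procollagen C-proteinase, was at 6.5 to 7.04 against 7.09 to 7.72 (medians 6.83 and 7.52), just apart (0.71 ± 0.13 log2, adjusted p = 0.0329, held in 3 of 12 fits). Mmp12, the macrophage elastase, overlapped between diets, at 4.46 to 5.88 and 5.83 to 6.67 (medians 5.39 and 6.40), with 1.10 ± 0.23 log2 (adjusted p = 0.046, held in 2 of 12 fits), and its control values were all under 6. These were the 3 of 25 metalloproteinases and inhibitors that passed, beside 0.995% of all named genes that were higher. The list had a median of 0.16, with 16 positive and 9 negative fold changes. In the list of 23 collagens and matrix assembly genes 0 passed in limma (median 0.19), where an unadjusted p under 0.05 gave 4 in each direction, with 1 higher and 3 lower without scan group. Of 33 genes of TGF-beta and BMP signalling, 0 passed, where an unadjusted p under 0.05 gave 3 higher and 4 lower, and a fit without scan group 1 in each direction.

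**Figure D4:**
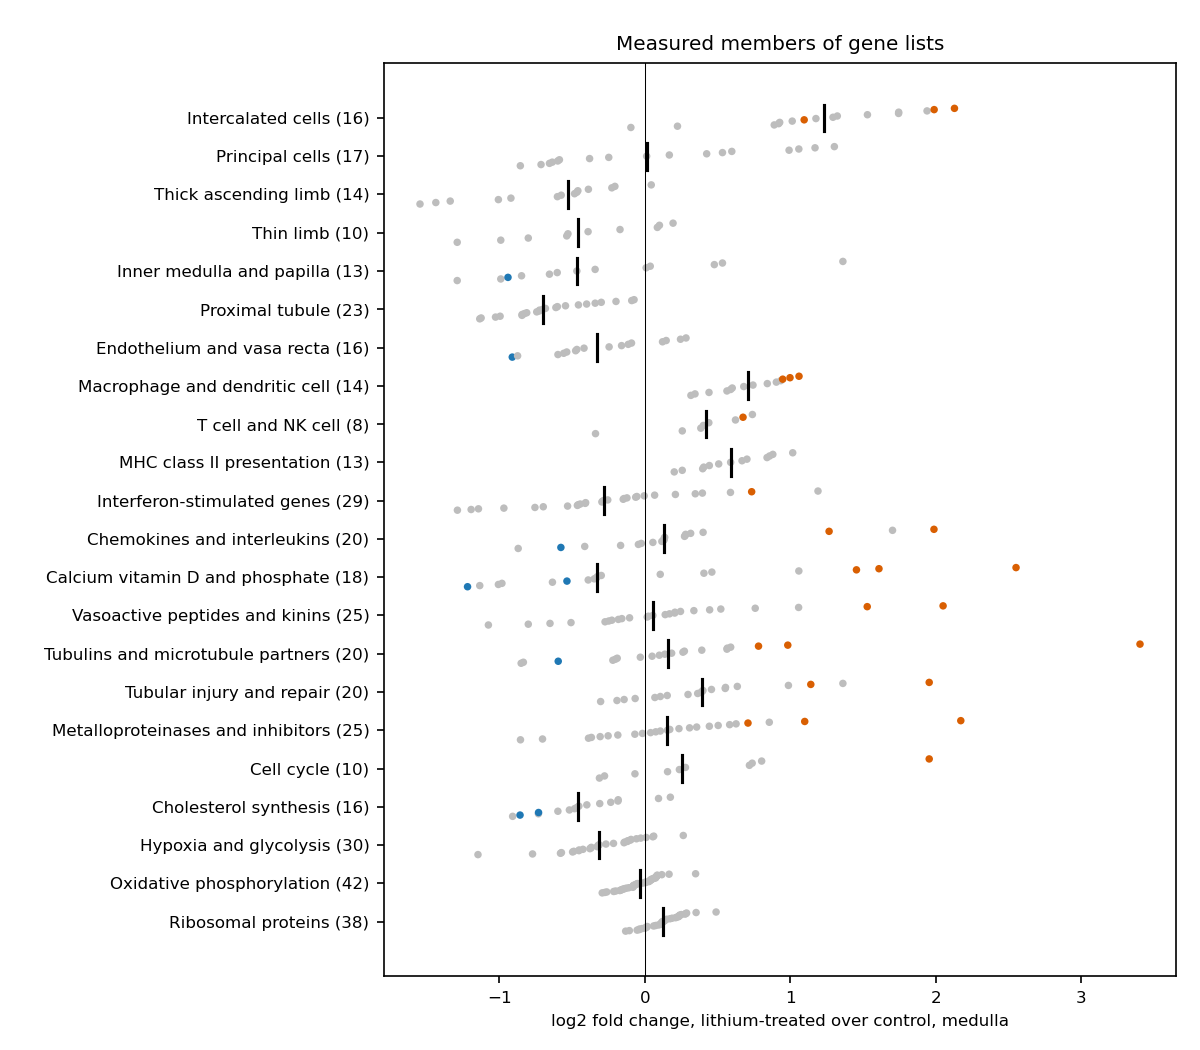
Log2 fold change (horizontal axis) of each measured member of 22 gene lists in the medulla, with the number of measured genes in brackets and the list median as a black bar. Orange members rose and blue members fell at an adjusted p under 0.05; the bars run from -0.70 for proximal tubule to 1.24 for intercalated cells.

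Podxl and Emcn, both made by endothelium, fell. Podxl, podocalyxin, a sialomucin of podocytes and endothelium, ran from 9.43 to 10.38 in controls (median 9.82) and from 8.54 to 9.39 with lithium (median 8.87). The highest lithium array was that of animal 6, and the groups were 0.04 log2 apart (-1.01 ± 0.19 log2, adjusted p = 0.0344; 0.00928 without animal 6). Emcn, endomucin, of venous and capillary endothelium, was at 9.86 to 10.80 against 8.92 to 9.86 (medians 10.21 and 9.28), where animal 6 reached the lowest control (-0.91 ± 0.19 log2, adjusted p = 0.0462; 0.0108 without animal 6). Both calls held in 2 of 12 fits that left out an animal. Emcn was the 1 of 16 endothelium and vasa recta genes that fell (median -0.33), where 6 fell without scan group and 4 without animal 6, and the defining marker Cdh5 gave 0.12 ± 0.09 log2 (adjusted p = 0.457). The podocyte list of 9 genes had a median of 0.02, and Podxl was its single gene past the threshold.

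Msmo1 and Tm7sf2, enzymes of cholesterol synthesis, fell. Msmo1, a sterol methyl oxidase, ran from 8.24 to 8.82 in controls (median 8.61) and from 7.39 to 8.36 with lithium (median 7.67). Animal 6 lay within the control range and the other 5 lithium arrays below it (-0.86 ± 0.16 log2, adjusted p = 0.0342; -1.02 and 0.00122 without animal 6). Tm7sf2, a sterol reductase, was at 7.49 to 7.98 against 6.78 to 7.44 (medians 7.90 and 7.11), hardly apart (-0.73 ± 0.14 log2, adjusted p = 0.0332). They held in 3 and 2 of 12 fits. Of 16 measured genes of the pathway 14 had a negative fold change, and the median was -0.46. In the main fit 2 fell and 0 rose, beside 0.423% and 0.995% of all named genes. Without scan group 8 fell, and without animal 6 the count was 7. The mean over the 16 ran from 7.84 to 8.10 in controls and from 7.39 to 7.57 in 5 lithium arrays, and was 7.85 in animal 6. The Msmo1 promoter, chr16:29746863-29747162 on the plus strand of GRCr8, holds the core of the cyclic AMP response element, TGACGT, in capitals, beside an AP-1 match (TGANTCA) that shares a base with it.
Msmo1: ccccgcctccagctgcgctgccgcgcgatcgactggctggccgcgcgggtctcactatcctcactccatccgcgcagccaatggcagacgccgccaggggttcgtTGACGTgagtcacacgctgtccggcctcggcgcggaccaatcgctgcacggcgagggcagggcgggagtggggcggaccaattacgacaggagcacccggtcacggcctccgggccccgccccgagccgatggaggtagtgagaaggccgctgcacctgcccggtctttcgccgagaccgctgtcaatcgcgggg
The letters TGACGT stood in 11.5% of the 7847 promoters, in 4 of 72 genes that rose (5.56%) and in 4 of 32 that fell (12.5%). AP-1 letters stood in 5.29%, in 6 of 72 (8.33%) and in 2 of 32 (6.25%).

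Other genes of metabolism and structure were among the 15 largest falls. Aass, the enzyme that starts lysine breakdown, ran from 7.55 to 8.51 in controls (median 8.05) and from 6.17 to 7.60 with lithium (median 6.75). Animal 6 overlapped with the lowest control, and the call (-1.22 ± 0.25 log2, adjusted p = 0.0457) held in 1 of 12 fits and had an adjusted p of 0.00769 without animal 6. Galm, galactose mutarotase, showed the same placing of animal 6, at 10.46 within the control range of 10.39 to 10.79, while the lithium median was 9.74 (-0.91 ± 0.19 log2, adjusted p = 0.0468; 0.00257 without it). Ank2, an ankyrin that anchors membrane proteins, was at 7.79 to 8.41 against 6.72 to 7.67 (medians 8.29 and 7.27), without overlap (-0.98 ± 0.17 log2, adjusted p = 0.0236). Mfap3l was at 7.96 to 8.56 against 6.82 to 7.60 (medians 8.12 and 7.27), which were 0.36 log2 apart (-0.99 ± 0.17 log2, adjusted p = 0.0215). Ptgs2, cyclooxygenase 2, which makes prostaglandins that protect medullary cells, ran from 7.55 to 8.31 in controls (median 7.86) and from 6.51 to 7.52 with lithium (median 7.00). The groups were 0.03 log2 apart (-0.94 ± 0.19 log2, adjusted p = 0.0395, held in 4 of 12 fits). The remaining 5 of these 15, Ctnnal1, Pfn2, Slc38a4, Snn and Chn2, fell by between 0.80 and 0.95 on the log2 scale, with adjusted p from 0.0215 to 0.0478. Outside them, Igfbp5, which binds insulin-like growth factors, was at 12.22 to 12.63 against 11.78 to 12.15 (medians 12.52 and 11.98), a small and separate difference of -0.53 ± 0.11 log2 (adjusted p = 0.0434, held in 2 of 12 fits).

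Acox2, a peroxisomal oxidase of branched fatty and bile acids, and Gpx1, a glutathione peroxidase, rose in lists that otherwise had no gene past the threshold. Acox2 ran from 5.28 to 6.36 in controls (median 5.93) and from 6.42 to 7.00 with lithium (median 6.79), without overlap (0.93 ± 0.20 log2, adjusted p = 0.0462). Gpx1 was at 9.60 to 10.06 against 10.13 to 10.48 (medians 9.74 and 10.39), also separate (0.54 ± 0.11 log2, adjusted p = 0.0434), and each held in 2 of 12 fits. They were 1 of 25 genes of fatty acid oxidation (median -0.20) and 1 of 37 antioxidant and NADPH enzymes (median -0.18). Per2, a component of the circadian clock, was the 1 of 13 clock genes that passed, at 7.58 to 7.91 against 8.18 to 8.68 (medians 7.75 and 8.39), with a gap of 0.27 log2. It rose by 0.67 ± 0.11 log2 (adjusted p = 0.0195, held in 8 of 12 fits). The clock list had a median of -0.14, with 3 positive and 10 negative fold changes. Anxa4, an annexin of epithelial membranes, was the 1 of 20 annexins, S100 proteins and galectins that passed (9.27 to 9.62 against 9.79 to 10.17, medians 9.37 and 10.00). It rose without overlap by 0.60 ± 0.10 log2 (adjusted p = 0.0195, held in 5 of 12 fits). That list had a median of -0.07, with 7 positive and 13 negative fold changes. Nt5c1a, a cytosolic nucleotidase that forms adenosine from AMP, was at 4.74 to 5.31 against 6.00 to 6.68 (medians 4.99 and 6.54), with all controls under 6 and no overlap (1.45 ± 0.14 log2, adjusted p = 0.00154).

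The lists of oxidative phosphorylation, tricarboxylic acid cycle, hypoxia and glycolysis, and ribosomal proteins gave 0 genes past the threshold in limma by their brightest clusters. The median of 42 genes of oxidative phosphorylation was -0.03, with 0 in either direction at an unadjusted p under 0.05 and 0 without scan group. That of 20 genes of the tricarboxylic acid cycle was -0.14, with 4 lower at an unadjusted p under 0.05 and 3 lower without scan group. For 30 genes of hypoxia and glycolysis it was -0.32, with 8 lower at an unadjusted p under 0.05 and 4 without scan group, and the glucose transporter Slc2a1 had the smallest p (-0.58 ± 0.15 log2, adjusted p = 0.0759; 0.0207 without animal 6). The 38 ribosomal protein genes had a median of 0.12, with 7 higher at an unadjusted p under 0.05 and 2 without scan group. For 11 genes of the enzymes that lithium is known to inhibit and of inositol supply the median was -0.14. In that list the inositol monophosphatase Impa1 had the smallest p (-0.35 ± 0.10 log2, adjusted p = 0.107; 0.0354 without scan group), and Gsk3b and Gsk3a gave -0.04 ± 0.10 and -0.08 ± 0.13 log2. The sorbitol-forming enzyme aldose reductase, Akr1b1, had the smallest p among 16 genes of osmolyte and urea transport, and its groups overlapped (10.90 to 12.79 against 10.36 to 11.40; -0.99 ± 0.36 log2, adjusted p = 0.161).

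Over the 61 gene lists, which hold 1001 measured genes, 29 lists had a gene past the threshold. Of 137 genes with a called cluster, 93 were in no list, among them Pkib, Vsig1, Stap1, Nt5c1a and Aass. A further 37 clusters that rose and 16 that fell carried no gene symbol in the platform table. Their median log2 fold changes were 0.90 and -0.76, and the largest were 3.25 and -1.19. For 45 of the 133 higher clusters the control mean was under 6, and for 3 of the 57 lower ones the lithium mean was, where the array gives little signal and a fold change may be understated. Where a gene had several clusters they did not always give the same call. Bax, Rpl23a and Insig1, chosen after their values were seen, passed by a dimmer cluster (0.65, 0.46 and -0.91 log2) while the brightest one did not.

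Whether the response to lithium differed between medulla and cortex was tested with an interaction term over the 24 arrays, which come from the same 12 animals. The fit takes nothing from the cortex array of animal 17, which was alone in its scan group. Of 16025 clusters, 6 (0.0374%) responded more positively in medulla and 1 (0.00624%) more negatively. With the animal as a replicate block, 3 remained, which were Adm2, Ccl28 and an unnamed cluster. That alternative fitted medulla minus cortex within each animal, with the medulla scan groups as a term, and left out animal 17 altogether. It thus differs from the first fit in its arrays and scan terms as well as in the pairing. Adm2 had a log2 fold change of 2.05 ± 0.19 in medulla and 0.05 ± 0.10 in cortex, a difference of 2.00 ± 0.23 (adjusted p = 0.000838; 0.0076 with the block). It passed in all 12 fits that left out an animal. The difference for Ccl28 was 1.74 ± 0.24 (cortex 0.25 ± 0.10, adjusted p = 0.00641; 0.0351 with the block), which held in 10 of 12 fits. Nt5c1a differed by 1.35 ± 0.19 (cortex 0.10 ± 0.12, adjusted p = 0.00641) and lost its call with the block (adjusted p = 0.103). Slc8a1, a sodium and calcium exchanger of the distal tubule, and Anxa5, a phospholipid-binding annexin, had not passed in the medulla alone and went opposite ways in the tissues. Slc8a1 gave 0.46 ± 0.15 log2 in medulla and -1.40 ± 0.24 in cortex (difference 1.86 ± 0.30, adjusted p = 0.0156; 0.229 with the block). Anxa5 gave -0.58 ± 0.21 and 1.02 ± 0.16 (difference -1.60 ± 0.28, adjusted p = 0.0365; 0.141 with the block). These held in 4 and 3 of 12 fits that left out an animal. The number of clusters past the threshold was 1 without animal 16 or without animal 21, 4 without animal 30, 11 without 29, 13 without 1 and 52 without 6. For Ccn3, Tppp3, Krt19, Mmp2, Klk1b3 and Cyp24a1 the tissue difference did not pass, and the cortex log2 fold changes were 2.37, 2.48, 3.50, 1.79, -2.74 and -1.53. That test had an adjusted p of 0.0511 for Ccn3 and 0.0511 for Trpv5, where the cortex gave 0.38 ± 0.15.

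**Figure D5:**
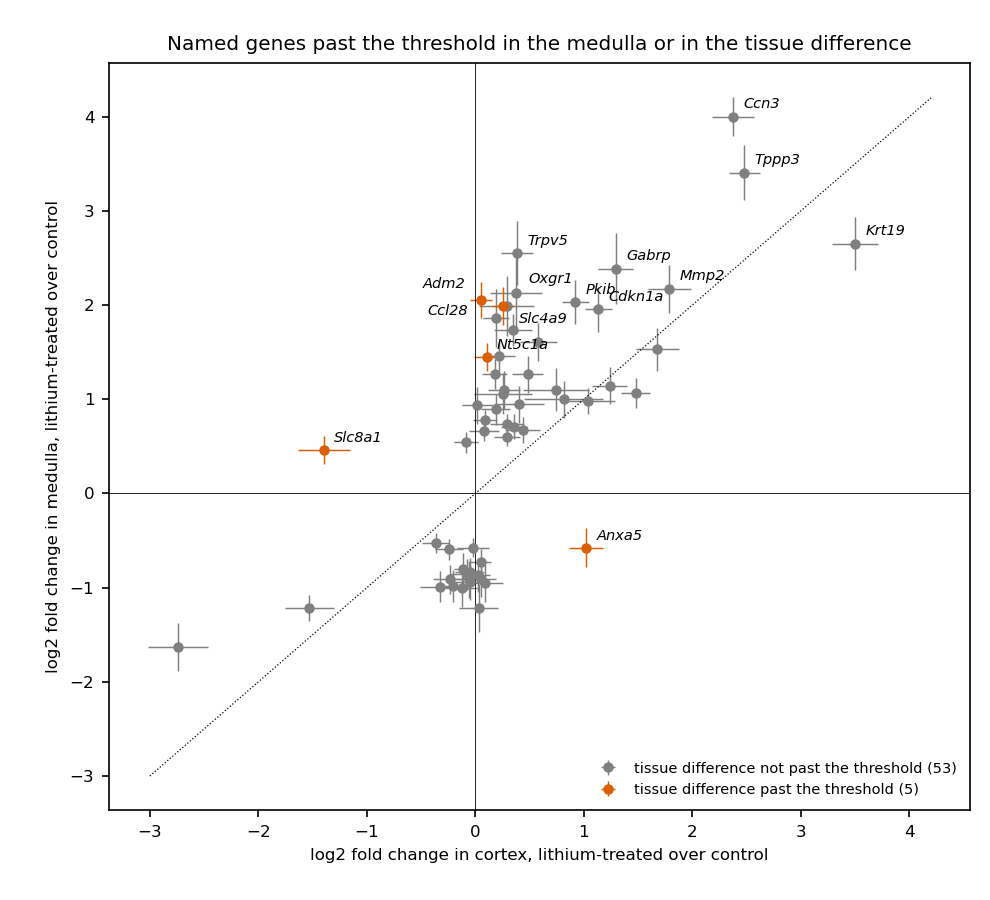
Lithium effect as a log2 fold change in medulla (vertical axis) against cortex (horizontal axis) for named genes past the threshold in the medulla or in the tissue difference, with SE as bars. The dotted line marks equal change; the 5 orange genes passed the test of the tissue difference without the animal as a block, Adm2, Ccl28, Nt5c1a and Slc8a1 lying above the line and Anxa5 below, and of these Adm2 and Ccl28 passed with the block.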

How the data were processed

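Renal medulla and cortex of 12 rats were measured on 24 Affymetrix rat arrays, for which the sources name both a gene and an exon design. The authors deposited log2 signal intensities, which they had made in Partek Genomics Suite 6.5 with RMA background correction, quantile normalization and a median polish. They took out the scan date effect by analysis of variance and then averaged exon probe sets to 28894 transcript clusters. The submitters' processing notes name Partek, RMA and rn4; no coordinates of that build were used.

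Scan groups were recovered from the combinations of arrays left without residual variance, and removing a batch in this way and then fitting without it counts its degrees of freedom again (10 instead of 8). Diets were compared with limma 3.58.1 (lmFit, eBayes) in R 4.3.3 with scan group as a term, with Benjamini-Hochberg adjustment over 16025 clusters and a threshold of 0.05. In simulated medulla data 32.8%, 83.6% and 100% of clusters changed by 0.5, 1 and 2 log2 were recovered, and 5.05% of unchanged clusters had an unadjusted p under 0.05 (8.20% without scan group). The simulated noise was drawn independently for each cluster and array, without variation shared by many genes of an animal. These shares therefore need not hold for the real arrays. The interaction used all 24 arrays and scan group within tissue. Same-numbered arrays come from 1 animal by their titles. Over 13403 clusters and 11 animals their deviations correlated from -0.0867 to 0.438, above 0.1 in 6. In 4 of the 11 the highest correlation was that with the same animal, and correlations with other animals reached 0.18. The animal was a block in an alternative. Precision is limited by the number of arrays.

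Genes named are the 15 largest rises and falls among called clusters with 1 symbol, up to 4 called members of each list or else its member of smallest p, and the 5 largest called tissue differences. A gene was represented by its brightest cluster. The lists and members were chosen with earlier results of these data known. Alternatives were no scan group, repeated quantile normalization, centred arrays, no filter or a filter at 7, eBayes with a trend or robust, the methods' 2-way ANOVA and t-test, leaving out each animal, the cluster of smallest p and the block. Promoters come from RefSeq (GRCr8). Python 3.11.15, numpy 2.4.6, pandas 2.3.3 and matplotlib 3.10.9 were used.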

Additional observations from a re-analysis of the deposited data

Results flagged for a closer look

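In 8 of 178 groups of 6 arrays examined, the array farthest from the rest stood apart by Dixon's criterion, where chance alone gives about 1 in 20, and 2 of the 8 were animal 6. Among the lithium arrays these were Ccn3 in animal 6 (9.01, the next array at 9.93), Nt5c1a in animal 6 (6.00, next 6.48), Tagln in animal 17 (7.97, next 8.67) and Canx in animal 22 (10.3, next 10.6). Among the controls they were Klk1b3 in animal 1 (7.00, next 7.75), Cyp24a1 in animal 29 (7.03, next 6.52), Rpl24 in animal 16 (7.31, next 7.48) and Igfbp5 in animal 29 (12.2, next 12.5).

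For 5 named genes the interaction term of limma, fitted without the animal as a block, gave a response to lithium that differed between medulla and cortex, although both arrays come from the same animals. With the block, Adm2 (adjusted p = 0.0076) and Ccl28 (0.0351) kept the call, and Nt5c1a (0.103), Slc8a1 (0.229) and Anxa5 (0.141) lost it. Without the block, the medulla minus cortex difference in log2 fold change was 2.00 for Adm2 (adjusted p = 0.000838), 1.86 for Slc8a1 (adjusted p = 0.0156), 1.74 for Ccl28 (adjusted p = 0.00641), 1.35 for Nt5c1a (adjusted p = 0.00641) and -1.60 for Anxa5 (adjusted p = 0.0365).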

How the results depend on the processing

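Against 133 clusters higher and 57 lower in the medulla, the fit without scan group gave 533 and 519, the methods' t-test with Benjamini-Hochberg 360 and 290, their 2-way ANOVA 27 and 10, and at their own threshold (unadjusted p under 0.05 and fold over 1.5) the ANOVA gave 301 and 257 and the t-test 339 and 312. Arrays centred on their medians gave 101 and 96, no filter 106 and 32, and a filter at 7 gave 87 and 60. Leaving out 1 animal gave between 42 and 459 higher and between 7 and 594 lower. Without animal 6 the higher share of calls was 43.6% instead of 70%, and repeated quantile normalization left it at 70.2%. The tissue difference, 7 clusters, came to 3 with the replicate block by animal, 349 without scan group, and between 1 and 52 without 1 animal. Of the 56 named genes past the threshold, all kept it with a trend and with robust variances. All also kept it without scan group, under the methods' t-test, which has no scan group term, and with the cluster of smallest p. The fits without scan group and the choice of smallest p favour calls, so that a call kept there is no sign of stability. Leaving out 1 animal ended the call of 35 of the 56 without animal 21, 34 without 22, 33 without 19, 32 without 15, 30 without 17, 27 without 18, 25 without 16, 22 without 13, 20 without 1, 18 without 30, 4 without 29 and none without 6, the lithium array nearest to the controls in most called clusters. Under the methods' ANOVA 40 lost it, without a filter 15, and with centred arrays or repeated quantile normalization 4 each. A filter at 7 kept the 46 it left in the test. None of the 56 named genes past the threshold reversed its direction in any of these settings. Their selection at that threshold favours this, so that a kept direction is no sign of stability. The cause of these differences was not tested.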
